A study of Mus musculus with 2 samples.

Results

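Among the 27998 genes counted in mouse liver nonparenchymal cells, 9 genes of blood coagulation and fibrinolysis were described: F3, F5, F8, F10, F13a1, Vwf, Plau, Plaur and Procr. They were chosen by gene symbol, and all 9 were present once in both gene tables. The cells came from C57BL/6 mice, and 2 droplet libraries of single-cell RNA were made. The yap1 library came from mice with floxed Yap1 alleles and Cre driven from Lyz2, a gene of myeloid cells, and the other library came from wild-type mice. Each library was a sample from 3 mice, and the mice of both genotypes had received carbon tetrachloride 4 times, a liver toxin used to model fibrosis. No untreated mice are part of the comparison, ages and sexes are not given in the labels, and whether the wild-type mice carried Cre or floxed alleles is not stated. With 1 library per genotype no test is possible and no p-value is given. Every interval below is a 95% interval for counting error only.

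Clotting begins when tissue factor, the product of F3, meets factor VII in blood and activates factor X. Factor Xa with its cofactor factor V forms thrombin, and factor VIII, carried in plasma by von Willebrand factor, amplifies the step that activates factor X. Thrombin turns fibrinogen into fibrin, which factor XIII crosslinks. Fibrinolysis removes fibrin through plasmin, which urokinase (Plau) generates at the cell surface while bound to its receptor (Plaur). The endothelial protein C receptor (Procr) presents protein C for activation and so limits clotting. Hepatocytes are the source of most plasma clotting factors, while liver sinusoidal endothelial cells are known for making factor VIII, and monocytes, macrophages and platelets carry the A subunit of factor XIII.

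RefSeq promoter sequences (build GRCm38.p6) were at hand for 7 of the 9 genes, F3, F5, F8, F10, F13a1, Plaur and Procr. The 250 bases before each transcription start were searched on both strands for TTNNGCAA (C/EBP), GAGGAAGT (PU.1) and CCGGAAGT (ETS). The same windows were searched for the GATA letters (AGATAA), the letters bound by AP-1 (TGAGTCA) and those of a TATA box (TATAAA). No 2 matches in these genes overlapped. The AP-1 letters were present in F3, Plaur and Procr, and in 4.46% of 32851 mouse promoters of the same length. These 3 are shown, upstream of the first annotated GENCODE base. The promoters of F5, F8, F10 and F13a1 held none of the 6 motifs in this window, for F13a1 at either of 2 RefSeq starts. The RefSeq start of F8 lies 2574 bases from its GENCODE start. The C/EBP letters were present in Plaur and Procr, and in 9.56% of all promoters. Capitals mark the AP-1 letters (TGAGTCA, or TGACTCA where the match is on the other strand) and the C/EBP letters (TTTAGCAA in Plaur, TTGGGCAA in Procr), and a match is a description of letters, not of binding. The sequences lie on the plus strand at chr3:121723287-121723536 for F3, chr7:24462233-24462482 for Plaur and chr2:155750967-155751116 for Procr, whose RefSeq start lies 100 bases inside the GENCODE transcript.
F3: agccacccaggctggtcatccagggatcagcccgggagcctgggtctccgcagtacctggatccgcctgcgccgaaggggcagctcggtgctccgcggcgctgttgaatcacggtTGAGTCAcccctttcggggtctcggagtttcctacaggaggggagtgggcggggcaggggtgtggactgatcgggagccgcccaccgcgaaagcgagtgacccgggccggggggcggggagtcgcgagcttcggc
Plaur: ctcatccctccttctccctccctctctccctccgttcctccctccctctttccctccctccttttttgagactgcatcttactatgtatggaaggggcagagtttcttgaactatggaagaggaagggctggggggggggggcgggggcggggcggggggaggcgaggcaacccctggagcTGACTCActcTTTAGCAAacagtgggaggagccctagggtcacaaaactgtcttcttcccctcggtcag
Procr: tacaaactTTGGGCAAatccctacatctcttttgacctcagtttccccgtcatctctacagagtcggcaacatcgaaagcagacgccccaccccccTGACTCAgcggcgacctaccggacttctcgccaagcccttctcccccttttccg
Counted from the RefSeq start, the AP-1 letters began 135 bases before F3, 69 before Plaur and 154 before Procr. The C/EBP letters began 59 bases before Plaur and 242 before Procr.

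The deposited matrices held 34234353 counted transcripts (UMIs) in 4731 barcodes of the yap1 library and 30386545 in 5269 barcodes of the wild-type library. Of these, 4149 yap1 and 4847 wild-type cells passed the filters, with medians of 5323 UMIs in yap1 and 4115 in wild type, and 5 barcode sequences occurred in both libraries. Cells were sorted into classes with marker lists that contain none of the 9 genes, and 11 classes had at least 50 cells in each library. Each of these classes had its own markers among its 10 leading genes. The gates used the same markers, so this is no independent check of the class names. In the hepatocyte-like class only 2 of 8 markers were among the 10. In the cDC2-like class 1 marker of migratory dendritic cells was among them too. The classical monocyte-like class was also led by F13a1 and by Prtn3, Elane, Ctsg and Mpo, genes of granulocyte and monocyte progenitors. The Yap1 transcript itself gave 0 to 3 UMIs per myeloid class in either library, so loss of Yap1 could not be checked there. In sinusoidal endothelial-like cells, which are not known targets of Lyz2-driven Cre, Yap1 stood at 64.1 CPM (62 UMIs) in the yap1 library and 66.8 CPM (93 UMIs) in wild type. CPM (counts per 1e6) here is a gene's UMIs scaled to the UMIs of its class. Lyz2, the gene that carries Cre, was at 9770 CPM in yap1 and 18360 CPM in wild-type classical monocyte-like cells.

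**Figure D1:**
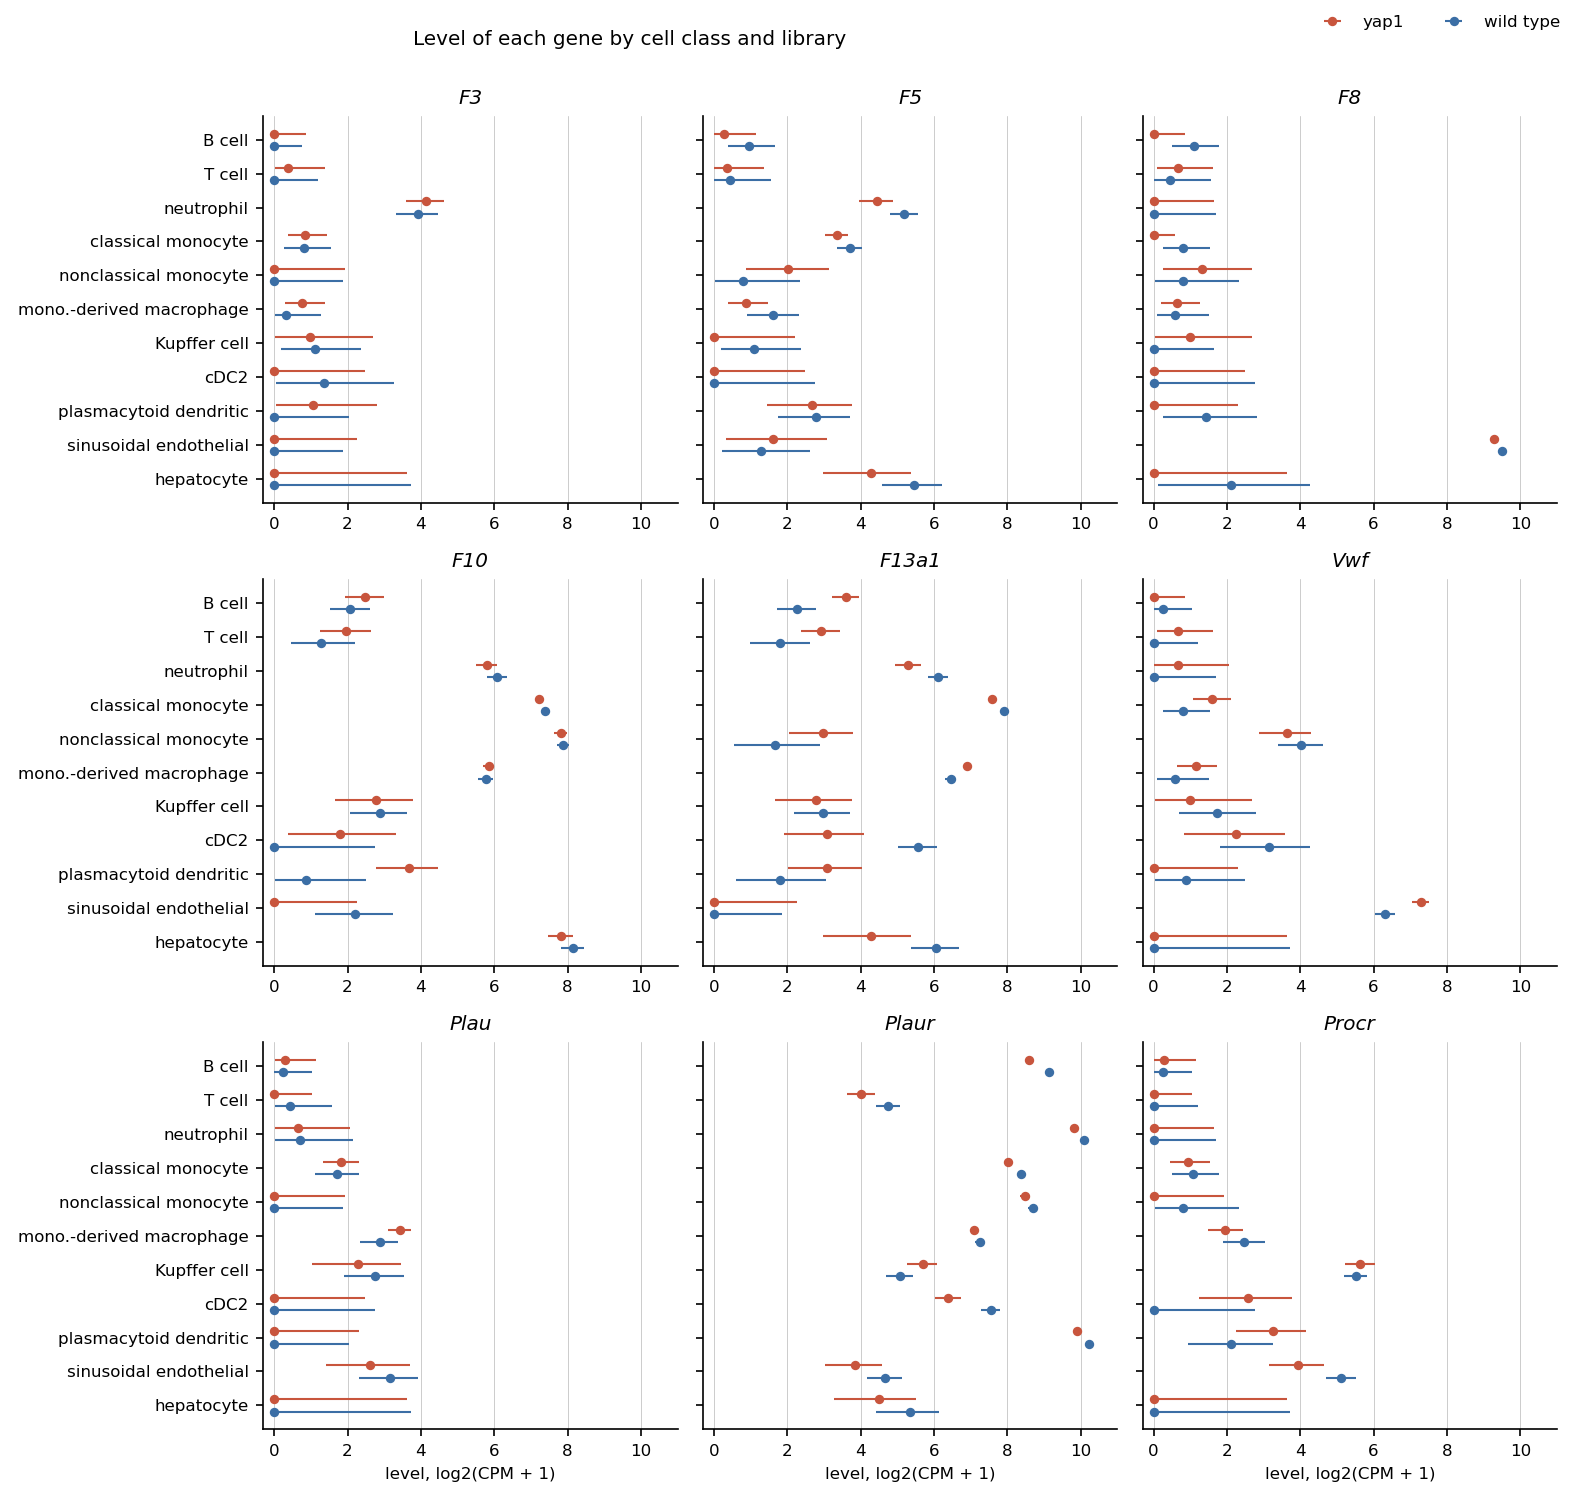
Level of each of the 9 genes, as log2(CPM + 1), in 11 cell classes of the yap1 library (red, upper point) and the wild-type library (blue, lower point), with 95% counting intervals. F8 and Vwf stand highest in sinusoidal endothelial-like cells, F3 in neutrophil-like cells, Procr in Kupffer cell-like cells, and Plaur is spread over most immune classes.

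F3, the tissue factor gene, was rare. In all filtered cells it gave 59 UMIs in the yap1 library and 49 in wild type. Neutrophil-like cells held 29 of these in yap1 and 23 in wild type, a level of 16.6 CPM (11.1 to 23.9) in yap1 and 14.1 CPM (8.94 to 21.2) in wild type. The ratio of yap1 over wild type was 1.18 (0.659 to 2.13), so no difference was detectable at this depth. F3 was found in 18 of 436 yap1 neutrophil-like cells (4.13%) and 15 of 404 wild-type cells (3.71%), and in none of 913 yap1 and 1281 wild-type B cell-like cells. The remaining compared classes had at most 6 UMIs per library, and monocytes, often named as a source of tissue factor, had 6 UMIs in 499 yap1 and 4 in 431 wild-type classical monocyte-like cells. Among classes too small to compare, cholangiocyte-like cells held 8 UMIs in 8 yap1 cells and 4 in 14 wild-type cells. Mesenchymal-like cells held 2 UMIs in 9 yap1 cells and 10 in 19 wild-type cells, and 3 yap1 mesothelial-like cells held 2, with no wild-type cell in that class.

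F10, which encodes factor X, was a gene of monocytes as well as of hepatocyte-like cells. Classical monocyte-like cells held 1117 of 2118 F10 UMIs in the yap1 library and 892 of 1740 in wild type. Hepatocyte-like cells had the highest level, at 226 CPM (73 UMIs) in yap1 and 283 CPM (86 UMIs) in wild type. Nonclassical monocyte-like cells followed at 223 CPM (294 UMIs) in yap1 and 235 CPM (323 UMIs) in wild type, and the counting intervals of these classes overlapped in both libraries. Classical monocyte-like cells had 148 CPM in yap1 and 167 CPM in wild type, below the nonclassical cells in both libraries without overlap. Monocyte-derived macrophage-like cells had 56.5 CPM (412 UMIs) in yap1 and 53.5 CPM (211 UMIs) in wild type, while Kupffer cell-like cells, the resident macrophages, had 5.84 CPM (6 UMIs) in yap1 and 6.32 CPM (11 UMIs) in wild type. F10 was thus lower in Kupffer cell-like than in monocyte-derived macrophage-like cells in either library, without overlap of the intervals.

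The F10 ratios of yap1 over wild type lay within 1.5-fold. The ratio was 0.885 (0.810 to 0.968) in classical monocyte-like cells, 0.949 (0.808 to 1.12) in nonclassical ones and 0.796 (0.575 to 1.10) in hepatocyte-like cells. In monocyte-derived macrophage-like cells it was 1.06 (0.892 to 1.25). There, 5 wild-type cells held 37.9% of the UMIs, against 17.2% in the 5 leading yap1 cells, and without those cells the ratio was 1.41 (1.15 to 1.73). F10 was detected in 51.9% of yap1 and 53.6% of wild-type classical monocyte-like cells, against 0.767% of yap1 and 0.625% of wild-type B cell-like cells, which serve as the level of free RNA. The B cell-like cells were shallower, at medians of 4416 UMIs in yap1 and 3665 in wild type, against 14988 in yap1 and 11971 in wild type for classical monocyte-like cells. With each cell thinned to 1000 UMIs, the expected shares with F10 in classical monocyte-like cells were 12.1% in yap1 and 15% in wild type.

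F5, the gene of factor V, was shared by neutrophils, classical monocytes and hepatocyte-like cells, and lower in yap1 neutrophil-like cells. Neutrophil-like cells had 20.6 CPM (36 UMIs) in yap1 and 35.5 CPM (58 UMIs) in wild type, a ratio of 0.580 (0.372 to 0.895). Lower ratios beyond 1.5-fold were given by 3.89% of the 4343 genes measured in that class. Cells with F5 were 6.65% in yap1 and 11.4% in wild type, and 1.54% in yap1 and 3.07% in wild type after thinning to 1000 UMIs. Over all 4343 genes of the class the median log2 ratio was 0.17, and 14.7% were higher beyond 1.5-fold. Within the class the F5 level was highest in cells with granule genes, which mark immature neutrophils and are among the gate's own markers. Cells with at least 3 of Camp, Ltf, Ngp and Mmp8 had 41.5 CPM (21.4 to 72.5, 12 of the 36 UMIs) in yap1 and 57.4 CPM (38.4 to 82.5, 29 of the 58 UMIs) in wild type. Cells with none of them had 15.6 CPM (8.29 to 26.6) in yap1 and 28.3 CPM (15.1 to 48.4) in wild type. The intervals overlapped in both libraries, so this order was not resolved. Of the granule-gene cells, 9 of 22 yap1 cells (40.9%, 20.7 to 63.6) and 20 of 50 wild-type cells (40%, 26.4 to 54.8) held F5. In cells with none of the granule genes it was found in 11 of 265 yap1 (4.15%) and 12 of 181 wild-type cells (6.63%). These shares were not thinned to equal depth. The granule-gene cells were deeper, with medians of 13536 UMIs in yap1 and 10014.5 in wild type, and they were fewer in the yap1 library. Their part in the lower F5 of yap1 neutrophil-like cells was not tested. In classical monocyte-like cells F5 had 9.28 CPM (70 UMIs) in yap1 and 12 CPM (64 UMIs) in wild type, a ratio of 0.773 (0.543 to 1.10). Hepatocyte-like cells had 18.5 CPM on 6 UMIs in yap1 and 42.8 CPM on 13 in wild type, too few for a ratio.

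F8, the gene of factor VIII, was almost confined to endothelial cells. Of 654 F8 UMIs in filtered yap1 cells 92.7% lay in sinusoidal endothelial-like cells, and of 1173 in wild type 86.2%, with most of the rest in cells that passed gates of several lineages. The level was 626 CPM (577 to 678) in yap1 and 727 CPM (682 to 773) in wild type. The ratio was 0.862 (0.778 to 0.954), inside the 1.5-fold limits. The next compared classes had at most 6 UMIs per library, and neutrophil-like and cDC2-like cells had 0 in both. F8 was found in 176 of 307 yap1 (57.3%) and 263 of 419 wild-type endothelial cells (62.8%), and in 0 of 913 yap1 and 6 of 1281 wild-type B cell-like cells. After thinning to 1000 UMIs, the expected shares of endothelial cells were 40.5% in yap1 and 45.6% in wild type. Hepatocyte-like cells, which make other factors, held 0 F8 UMIs in 129 yap1 cells and 1 in 140 wild-type cells. The 0 allows up to 9.27 CPM.

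Vwf, which encodes the carrier of factor VIII and an adhesive protein for platelets, was concentrated in few endothelial cells. Sinusoidal endothelial-like cells had 155 CPM (150 UMIs) in yap1 and 79.0 CPM (110 UMIs) in wild type, a ratio of 1.961 (1.52 to 2.53). In this class 3.42% of 6292 genes were higher beyond 1.5-fold. The share of cells ran the other way, with Vwf in 16 of 307 yap1 (5.21%) and 29 of 419 wild-type cells (6.92%). In yap1, 5 cells held 89.3% of the Vwf UMIs, against 53.6% in wild type, and a single yap1 cell held 53. Without the 5 leading cells of each library the levels were 17.3 CPM in yap1 and 38.3 CPM in wild type, a ratio of 0.451 (0.240 to 0.803). A gate for other vessels took 0 yap1 and 9 wild-type cells, and those 9 cells held 72 Vwf UMIs at 1296 CPM. With both endothelial gates joined, including cells that also passed a gate of another lineage, the ratio was 0.968 (0.786 to 1.19). The direction of the Vwf ratio thus changed with 5 cells and with the gate.

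The Vwf-rich cells of the sinusoidal endothelial-like class carried Rspo3 and other endothelial zone markers. Each library had 3 sinusoidal endothelial-like cells with at least 10 Vwf UMIs, which held 127 UMIs in yap1 and 41 in wild type, and all 6 expressed Rspo3, a Wnt enhancer of central endothelium. All 6 also held at least 3 of the other-vessel markers, and 3 of 3 yap1 and 2 of 3 wild-type cells a portal marker. Cells without Vwf held at least 3 other-vessel markers in 131 of 291 in yap1 and 170 of 390 in wild type. Among cells with 1 to 9 Vwf UMIs, Rspo3 was found in 3 of 13 in yap1 and 8 of 26 in wild type. Among cells without Vwf, Rspo3 was found in 7 of 291 in yap1 and 19 of 390 in wild type. The gate for other vessels held 3 more wild-type cells with at least 10 Vwf UMIs (55 UMIs), and 0 of these 3 held Rspo3. The 6 Vwf-rich sinusoidal endothelial-like cells were also deep, with medians of 13915 UMIs in yap1 and 16298 in wild type. The cells without Vwf had medians of 2110 UMIs in yap1 and 1962 in wild type, and the part of depth in the Rspo3 shares was not tested. Cells with at least 2 of 5 central markers and under 2 of 5 portal markers (Rspo3, Wnt9b, Wnt2, Cdh13 and Thbd against Efnb2, Ltbp4, Dll4, Msr1 and Adgrg6) had Vwf at 535 CPM in yap1 and 188 CPM in wild type, in 7 of 40 yap1 cells (17.5%) and 12 of 60 wild-type cells (20%). Cells with at least 2 central and at least 2 portal markers had 299 CPM in 3 of 14 yap1 cells and 71.2 CPM in 5 of 40 wild-type cells. Cells with the portal pattern had 7.56 CPM on 3 UMIs in yap1 (100 cells) and 60.0 CPM on 30 UMIs in wild type (121 cells). These Vwf levels were not recomputed without the Vwf-rich cells. F8 did not follow this split by zone. It had 590 CPM in yap1 and 800 CPM in wild type on the central side, and 678 CPM in yap1 and 760 CPM in wild type on the portal side. The F8 ratio was 0.738 (0.587 to 0.924) on the central side and 0.892 (0.760 to 1.05) on the portal side, and whether these differ was not tested.

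**Figure D2:**
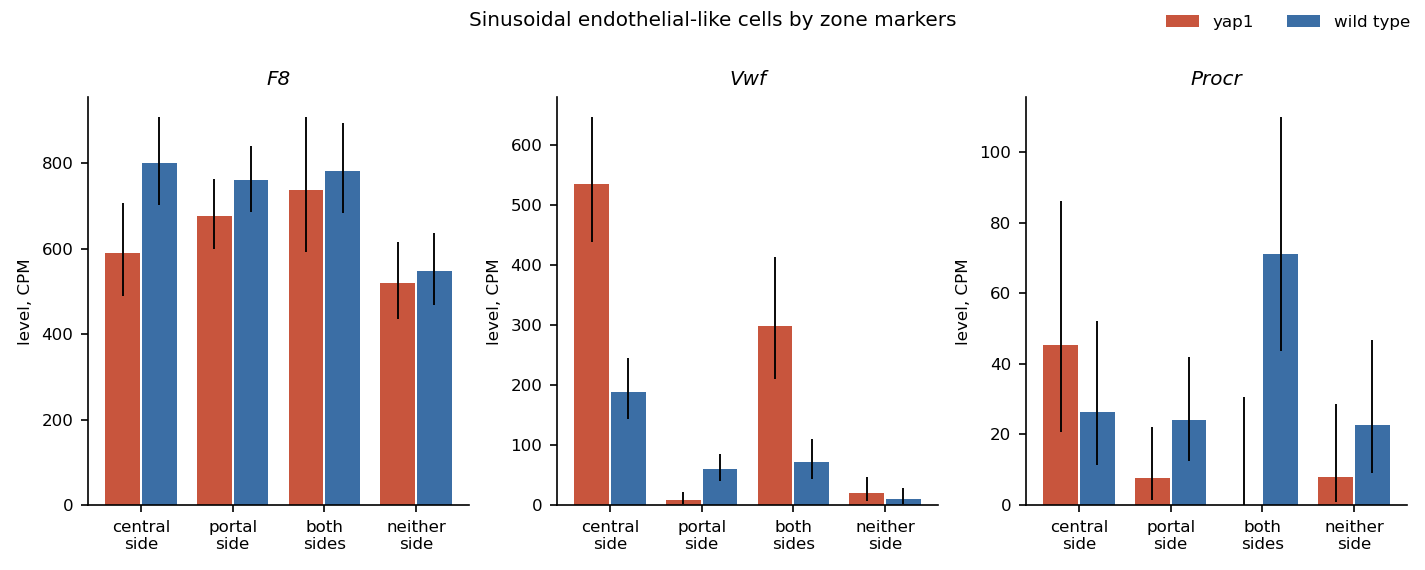
Levels of F8, Vwf and Procr in CPM within sinusoidal endothelial-like cells grouped by central and portal marker genes, for yap1 (red, left bars) and wild type (blue, right bars), with 95% counting intervals. F8 lies between 520 and 800 CPM in every group, whereas Vwf reaches 535 CPM in central-side yap1 cells and 7.56 CPM in portal-side yap1 cells. The central-side yap1 value comes from 7 of 40 cells. In the whole class 3 yap1 cells held 127 of the 150 Vwf UMIs, and the intervals do not cover differences between cells.

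Vwf was also present at a low level outside the endothelium. Nonclassical monocyte-like cells had 11.4 CPM (15 UMIs in 13 of 143 cells) in yap1 and 15.3 CPM (21 UMIs in 19 of 181 cells) in wild type, at most 3 UMIs in a cell. B cell-like cells had 0 Vwf UMIs in yap1 and 1 in wild type. The other-vessel markers summed to 6.07 CPM in yap1 and 5.09 CPM in wild type in these monocytes, against 2266 CPM in yap1 and 2211 CPM in wild type in the sinusoidal endothelial-like class. Megakaryocyte or platelet-like barcodes, 2 in yap1 and 10 in wild type, held 4 Vwf UMIs in yap1 and 21 in wild type. The same barcodes held 4 F13a1 UMIs in yap1 and 6 in wild type, 2 F5 UMIs in yap1 and 5 in wild type, and 0 F10 UMIs in yap1 and 5 in wild type.

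F13a1, the A subunit of the fibrin-crosslinking factor XIII, was highest in classical monocyte-like and then in monocyte-derived macrophage-like cells. Classical monocyte-like cells had 189 CPM (179 to 199, 1426 UMIs) in yap1 and 241 CPM (228 to 255, 1288 UMIs) in wild type. Monocyte-derived macrophage-like cells had 118 CPM (110 to 126, 859 UMIs) in yap1 and 86.9 CPM (78.0 to 96.6, 343 UMIs) in wild type. Kupffer cell-like cells had 5.84 CPM (6 UMIs) in yap1 and 6.89 CPM (12 UMIs) in wild type, and sinusoidal endothelial-like cells had none in either library. The genotype ratios of the leading classes lay on opposite sides of 1. The ratio was 0.783 (0.725 to 0.845) in classical monocyte-like cells and 1.35 (1.19 to 1.54) in monocyte-derived macrophage-like cells, both within 1.5-fold, and the difference between the ratios was not tested. F13a1 was found in 49.5% of yap1 and 53.8% of wild-type classical monocyte-like cells and in 48.7% of yap1 and 37.3% of wild-type macrophage-like cells. The share in B cell-like cells was 0.767% in yap1 and 0.859% in wild type. After thinning to 1000 UMIs the expected shares were 13.5% in yap1 and 18.5% in wild type for classical monocyte-like cells, and 9.97% in yap1 and 7.35% in wild type for macrophage-like cells. In macrophage-like cells the classical monocyte markers summed to 1632 CPM in yap1 and 1496 CPM in wild type and the Kupffer markers to 259 CPM in yap1 and 457 CPM in wild type, and their part in the higher F13a1 was not tested.

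F13a1 was highest in the 10 cells of each library that carried at least 10 UMIs of Elane, Prtn3, Mpo and Ctsg within the classical monocyte-like class. These progenitor-gene cells had 688 CPM (216 UMIs) in yap1 and 372 CPM (121 UMIs) in wild type, a ratio of 1.85 (1.47 to 2.33). These cells were deep, with medians of 28930 UMIs in yap1 and 29390 in wild type. The remaining classical monocyte-like cells had 167 CPM in yap1 and 233 CPM in wild type, a ratio of 0.718 (0.662 to 0.779). F10 did not stand out in the progenitor-gene cells, at 153 CPM in yap1 and 123 CPM in wild type. F10 and F13a1 separated the monocyte classes. Both were found together in 170 of 499 yap1 and 160 of 431 wild-type classical monocyte-like cells. In nonclassical cells F10 stood without F13a1 in 79 of 143 yap1 and 93 of 181 wild-type cells, and with it in 5 yap1 cells and 1 wild-type cell.

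In lymphocyte and neutrophil classes the F13a1 ratios rested on a few barcodes. Neutrophil-like cells had 67 UMIs (38.4 CPM) in yap1 and 111 UMIs (68.0 CPM) in wild type, a ratio of 0.564 (0.410 to 0.771). Of these UMIs, 64 in yap1 and 110 in wild type lay in the 17 yap1 and 23 wild-type cells that held at least 2 of the monocyte genes Ly6c2, Ccr2, Ms4a4c and Vcan. The remaining 419 yap1 and 381 wild-type neutrophil-like cells held 3 F13a1 UMIs in yap1 and 1 in wild type. The classical monocyte markers, which include these genes, summed to 4922 CPM in yap1 and 6317 CPM in wild type over the whole class, and whether these cells are doublets was not tested. F10 was split the same way, at 222 CPM in yap1 and 342 CPM in wild type with monocyte genes, and 27.9 CPM in yap1 and 15.2 CPM in wild type without. The F10 ratio was 0.822 (0.618 to 1.09) in all neutrophil-like cells and 1.83 (1.06 to 3.25) without the cells with monocyte genes. Without these cells F3 stood at 18.6 CPM in yap1 and 14.5 CPM in wild type, and Plaur at 955 CPM in yap1 and 1153 CPM in wild type. B cell-like cells had 51 F13a1 UMIs in 7 of 913 yap1 cells and 20 in 11 of 1281 wild-type cells, a ratio of 2.95 (1.73 to 5.23), where 3.73% of 8445 genes were higher beyond 1.5-fold. A single yap1 cell held 28 of the UMIs, and without the 5 leading cells of each library 2 UMIs in yap1 and 6 in wild type remained.

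**Figure D3:**
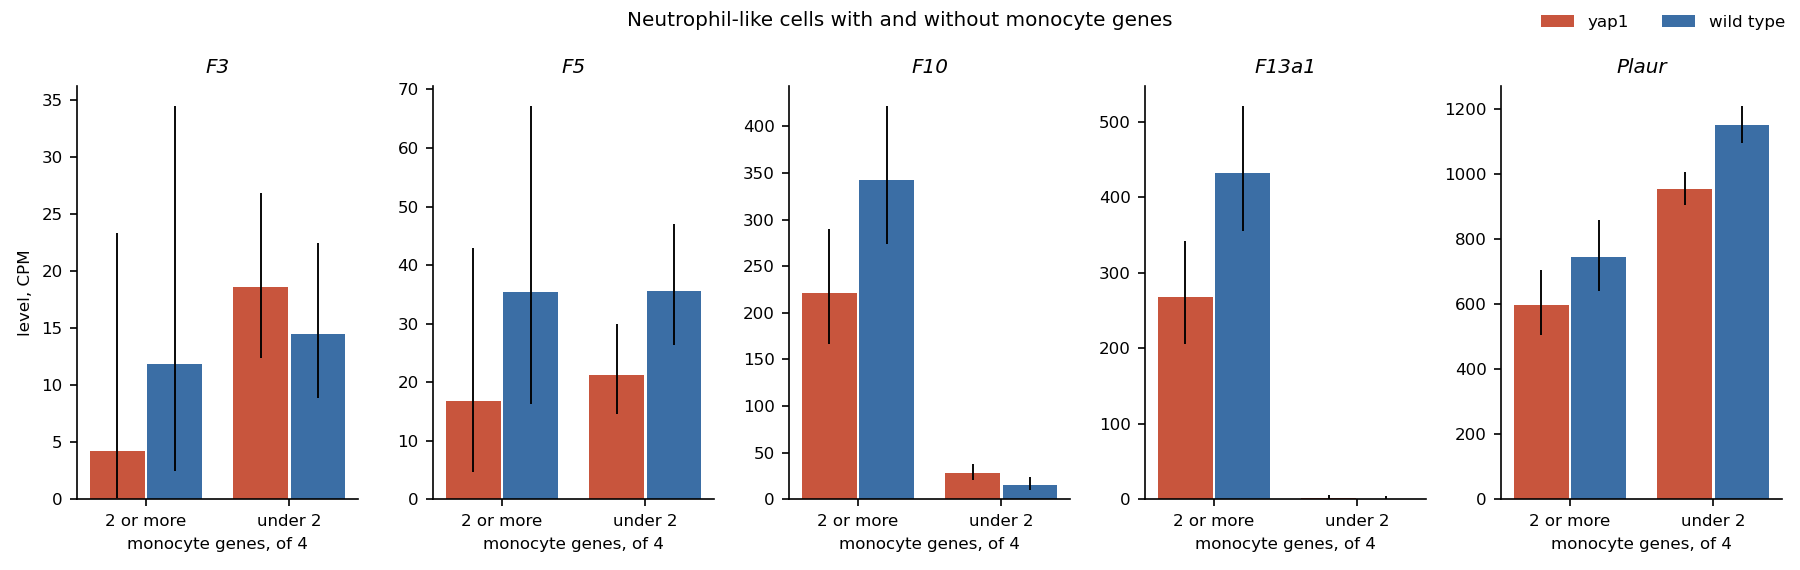
Levels in CPM of F3, F5, F10, F13a1 and Plaur in neutrophil-like cells with at least 2 of 4 monocyte genes (17 yap1 and 23 wild-type cells) and with fewer (419 yap1 and 381 wild-type cells), yap1 in red on the left of each pair and wild type in blue, with 95% counting intervals. F13a1 falls to 1.99 CPM in yap1 and 0.726 CPM in wild type in cells with fewer monocyte genes, while Plaur is at 955 CPM in yap1 and 1153 CPM in wild type there.

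Plau, urokinase, was rare, and its leading class differed between the libraries. Monocyte-derived macrophage-like cells had 71 of 103 Plau UMIs in the yap1 library and 25 of 70 in wild type, at 9.73 CPM (7.6 to 12.3) in yap1 and 6.34 CPM (4.10 to 9.35) in wild type. The ratio was 1.54 (0.961 to 2.53), and 4.39% of 8682 genes were higher beyond 1.5-fold in that class. Since the interval includes 1, a difference was not detectable at this depth; without the 5 leading cells of each library the ratio was 2.20 (1.15 to 4.54). It was 1.28 with cells thinned to 1000 UMIs, 1.28 with cells weighted equally and 1.29 with clusters in place of gates, all within 1.5-fold. Plau was found in 38 of 452 yap1 (8.41%) and 16 of 287 wild-type cells (5.57%), against 1 B cell-like cell in each library. After thinning to 1000 UMIs the expected shares were 0.765% in yap1 and 0.591% in wild type. Sinusoidal endothelial-like cells had 5.17 CPM (5 UMIs) in yap1 and 7.90 CPM (11 UMIs) in wild type, below the macrophages in yap1 and above them in wild type, and the intervals overlapped in both libraries. Plau was at 0 in hepatocyte-like, cDC2-like, nonclassical monocyte-like and plasmacytoid dendritic-like cells of either library.

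Plaur, the urokinase receptor, had the widest distribution of the 9 genes and was lower in most yap1 classes. Plasmacytoid dendritic-like cells had 962 CPM (900 to 1027, 894 UMIs) in yap1 and 1191 CPM (1130 to 1255, 1427 UMIs) in wild type. Neutrophil-like cells had 906 CPM (862 to 952, 1581 UMIs) in yap1 and 1089 CPM (1039 to 1141, 1777 UMIs) in wild type, and the order of these leading classes was not resolved, since their intervals overlapped in both libraries. B cell-like cells had 384 CPM (1757 UMIs) in yap1 and 557 CPM (2950 UMIs) in wild type. Nonclassical monocyte-like cells followed at 358 CPM in yap1 and 412 CPM in wild type, with intervals that overlapped those of B cell-like cells in the yap1 library, and classical ones at 261 CPM in yap1 and 328 CPM in wild type. Monocyte-derived macrophage-like cells had 136 CPM in yap1 and 151 CPM in wild type. T cell-like cells were among the lowest, at 15.2 CPM (53 UMIs) in yap1 and 25.8 CPM (73 UMIs) in wild type, next to sinusoidal endothelial-like cells at 13.4 CPM in yap1 and 24.4 CPM in wild type.

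The Plaur signal in B cell-like cells was present in most cells. It was found in 607 of 913 yap1 cells (66.5%) and 935 of 1281 wild-type cells (73.0%), and the 5 leading cells held 4.38% of the UMIs in yap1 and 2.44% in wild type. T cell-like cells, which were deeper at medians of 6725 UMIs in yap1 and 5498 in wild type, had Plaur in 7.53% of cells in yap1 and 8.84% in wild type. After thinning to 1000 UMIs the expected shares were 28.9% of B cell-like cells in yap1 and 39.2% in wild type, against 1.55% of T cell-like cells in yap1 and 2.19% in wild type. Of the 50-base words in the last 500 bases of Plaur transcripts 0% occurred in another gene, and no annotated gene overlapped it. Plasmacytoid dendritic-like cells had Plaur in 78 of 79 yap1 and 127 of 130 wild-type cells.

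Plaur ratios lay below 1 in 8 of 9 classes with a ratio. They were 0.690 (0.650 to 0.732) in B cell-like, 0.832 (0.777 to 0.891) in neutrophil-like (0.738 with median-of-ratios scaling), 0.795 (0.745 to 0.848) in classical monocyte-like and 0.868 (0.767 to 0.983) in nonclassical monocyte-like cells. Within the neutrophil-like class the Plaur ratio was 0.668 (0.594 to 0.752) in cells with no granule gene. It was 0.986 (0.889 to 1.09) in cells with 1 or 2 of the 4 granule genes and 0.873 (0.746 to 1.02) with at least 3. Whether these differ was not tested. In plasmacytoid dendritic-like cells the ratio was 0.807 (0.742 to 0.878), and in monocyte-derived macrophage-like cells 0.903 (0.815 to 1.001). Beyond 1.5-fold lay T cell-like cells at 0.590 (0.406 to 0.852), where 3.97% of 7704 genes were lower beyond 1.5-fold, and cDC2-like cells. The T cell-like ratio came within 1.5-fold at 0.730 with cells thinned to 1000 UMIs, 0.736 with cells weighted equally and 0.730 (0.515 to 1.03) with a stricter gate. The cDC2-like class had 83.1 CPM (67 UMIs in 24 of 51 cells) in yap1 and 187 CPM (120 UMIs in 27 of 52 cells) in wild type, a ratio of 0.445 (0.325 to 0.604), where 7.57% of 3459 genes were lower beyond 1.5-fold. The neutrophil markers in this class summed to 99.2 CPM in yap1 and 224 CPM in wild type, with 5 of 12 at 0 in yap1 and 3 in wild type, and their part in the lower Plaur was not tested. Only Kupffer cell-like cells lay above 1, at 50.6 CPM (52 UMIs) in yap1 and 32.7 CPM (57 UMIs) in wild type, a ratio of 1.55 (1.04 to 2.29), where 5.25% of 5636 genes were higher beyond 1.5-fold. There 5 yap1 cells held 73.1% of the UMIs, and without the 5 leading cells of each library the ratio was 0.752 (0.372 to 1.44).

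Procr, the endothelial protein C receptor, was higher in Kupffer cell-like cells than in sinusoidal endothelial-like cells when each class was taken whole. Kupffer cell-like cells had 48.7 CPM (36.1 to 64.2, 50 UMIs) in yap1 and 44.8 CPM (35.4 to 55.9, 78 UMIs) in wild type, a ratio of 1.09 (0.746 to 1.57). It was found in 38 of 192 yap1 (19.8%) and 60 of 393 wild-type cells (15.3%), against 1 B cell-like cell in each library. Sinusoidal endothelial-like cells had 14.5 CPM (7.91 to 24.3, 14 UMIs) in yap1 and 33.8 CPM (24.8 to 44.9, 47 UMIs) in wild type. The endothelial ratio was 0.428 (0.218 to 0.791), where 5.4% of 6292 genes were lower beyond 1.5-fold. Wild-type intervals of the Kupffer and endothelial classes overlapped, while those of the yap1 library did not. A single wild-type endothelial cell held 15 of the 47 UMIs, and without the 5 leading cells of each library 5 UMIs in yap1 and 26 in wild type remained, a ratio of 0.275 (0.0825 to 0.728). By zone, cells with at least 2 central and at least 2 portal markers had 0 UMIs in 14 yap1 cells and 20 UMIs in 40 wild-type cells. Those wild-type cells stood at 71.2 CPM (43.5 to 110), above the wild-type Kupffer cell-like level, with overlapping intervals. Central-side yap1 endothelial cells had 45.4 CPM (20.8 to 86.2, 9 UMIs), close to the yap1 Kupffer cell-like level. The endothelial ratio was 0.167 (0.0433 to 0.462) with a stricter cell filter, and 0.718 with cells thinned to 1000 UMIs, which is within 1.5-fold. Without the highest Scrublet scores it was 0.597 (0.288 to 1.17), an interval that includes 1. Kupffer markers in these endothelial cells summed to 427 CPM in yap1 and 438 CPM in wild type.

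Over all classes, 26 pairs of a gene and a class had at least 50 UMIs in both libraries together and so a ratio. In these pairs the ratio lay above 1 in 8 and below 1 in 18, against 48.6% above and 51.4% below of all 65868 pairs of a gene and a class. The interval excluded 1 on the higher side in 4 and on the lower side in 13, against 9.25% higher and 10.4% lower of all pairs. An interval excludes 1 more readily with more UMIs, and no share at like UMIs was computed for this count. Plaur alone gave 8 of the 18 ratios below 1. A ratio beyond 1.5-fold was found in 9 of 26, 4 higher and 5 lower in yap1, against 9.75% of all pairs (4.94% higher, 4.81% lower). All 9 rested on 61 to 260 UMIs over both libraries. Among pairs with 50 to 300 UMIs 9 of 14 of the described genes were beyond 1.5-fold, against 12.7% of 43119. Of the higher pairs, Vwf in endothelial, F13a1 in B cell-like and Plaur in Kupffer cell-like cells turned below 1 without the 5 leading cells, and for Plau in macrophage-like cells the interval included 1. Of the lower pairs, F5 and F13a1 in neutrophil-like, Plaur in T cell-like and cDC2-like and Procr in endothelial cells stayed below 1 without those cells, but F13a1 in neutrophil-like cells lay above 1 without the cells with monocyte genes (2.74) and with clusters in place of gates (1.84).

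**Figure D4:**
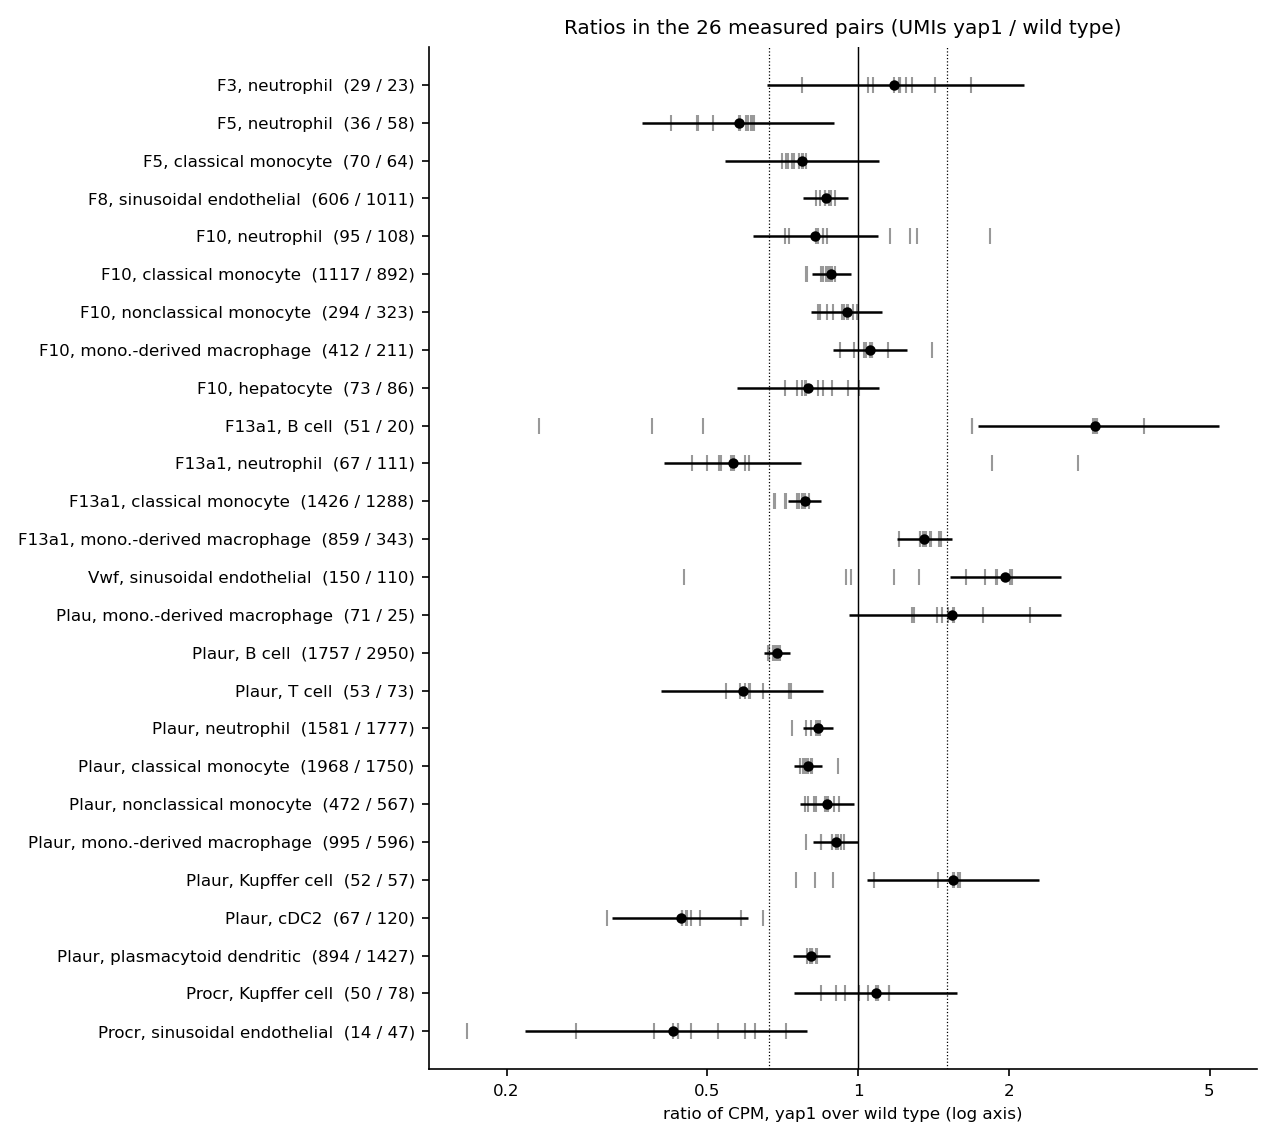
Ratio of CPM, yap1 over wild type, on a log axis for the 26 pairs of a gene and a class with at least 50 UMIs. Points with bars give the ratio and its 95% counting interval, grey ticks the ratio under each alternative processing, dotted lines 1.5-fold, and labels the UMIs of yap1 and wild type. Grey ticks cross 1 for F13a1 in B cell-like and neutrophil-like, Vwf in endothelial and Plaur in Kupffer cell-like cells, among others, whereas F8 and most Plaur ratios stay on the lower side.

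Of 67 other genes of coagulation and fibrinolysis listed by role, 48 had at least 50 UMIs in a compared class. They gave 196 pairs of a gene and a class, of which 19 were higher and 20 lower in yap1 beyond 1.5-fold. Eno1, an enolase that also binds plasminogen at the cell surface, made up 10 of the higher ones, and without it 9 of 185 were higher. The Eno1 ratio was 2.19 (1.74 to 2.79) in cDC2-like, 2.13 (1.62 to 2.83) in hepatocyte-like and 1.99 (1.83 to 2.16) in monocyte-derived macrophage-like cells. It was 1.95 in nonclassical monocyte-like, 1.69 in plasmacytoid dendritic-like and 1.58 in B cell-like cells. Of the 50-base words at the 3′ end of Eno1, 39.8% also occur in another gene, so its counts are uncertain. By class, the shares of all genes beyond 1.5-fold not given above were 3.19% lower in B cell-like, 3.23% higher in T cell-like, 3.93% higher and 4.27% lower in classical monocyte-like, and 3.27% higher and 6.8% lower in nonclassical monocyte-like cells. They were 3.7% lower in monocyte-derived macrophage-like, 6.8% lower in Kupffer cell-like, 5.84% higher in cDC2-like, and 3.95% higher and 4.77% lower in plasmacytoid dendritic-like cells.

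Of the plasma factors made by hepatocytes, 4 of 9 measured in hepatocyte-like cells were lower in yap1 beyond 1.5-fold, Fga, Fgb, Fgg and Hrg. The other 5 had ratios below 1 and within 1.5-fold, and the intervals of F12 (0.443 to 1.16) and Plg (0.589 to 1.004) included 1. Over all roles 9 of 26 genes were lower and 1 higher in that class, against 6.66% lower and 13.2% higher of 1711 genes. The median log2 ratio was -0.48 over the 26 genes and 0.08 over all genes. Fibrinogen was the clearest case. Fgb had 1799 CPM (582 UMIs) in yap1 and 3446 CPM (1046 UMIs) in wild type, a ratio of 0.522 (0.471 to 0.578). Fgg had a ratio of 0.520 (0.466 to 0.579) and Fga of 0.405 (0.324 to 0.502). Serpinc1, which encodes antithrombin, had 631 CPM in yap1 and 784 CPM in wild type, a ratio of 0.804 (0.664 to 0.974), and 1.04 after thinning to 1000 UMIs. The hepatocyte markers summed to 69512 CPM in yap1 and 79365 CPM in wild type, and the medians were 1534 UMIs in yap1 and 1410 in wild type. These cells are those left after hepatocytes were spun down, and whether the markers' lower sum is part of the lower fibrinogen was not tested.

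In endothelial cells 6 anticoagulant genes were measured, of which 2 had a ratio above 1, 4 below 1 and 0 beyond 1.5-fold. Thbd, the thrombomodulin gene, had 239 CPM (231 UMIs) in yap1 and 310 CPM (432 UMIs) in wild type, a ratio of 0.769 (0.653 to 0.904), and Tfpi, the tissue factor pathway inhibitor, a ratio of 0.744 (0.647 to 0.855). Pros1, protein S, had 0.923 (0.807 to 1.05) and Anxa5, an annexin that binds phosphatidylserine, 0.877 (0.779 to 0.985). Above 1 lay Gas6 at 1.15 (0.945 to 1.39) and Tfpi2 at 1.17 (0.669 to 2.02). Thbd and Procr belong to the same protein C activation step, and both lay below 1 in this class, where only 2871 of all 6292 genes lay above 1. Procr rested on 14 UMIs in yap1 and 47 in wild type, and a joint change of Thbd and Procr was not tested. Mmrn1, a multimerin that binds factor V in platelets, had 79.6 CPM (77 UMIs) in yap1 and 22.3 CPM (31 UMIs) in wild type, a ratio of 3.57 (2.33 to 5.61), the highest of the 24 pathway genes measured there, and 1.93 with cells weighted equally. Only 9 alternatives gave a Mmrn1 ratio (1.88 to 3.84), against 11 for Vwf in this class. The others left no Mmrn1 UMI in a library and so gave no ratio. Those alternatives thus took every cell with Mmrn1 of a library out of the class, and the range does not cover this. Of the 24 pathway genes, 2 were higher and 0 lower beyond 1.5-fold, while Itgb3, an integrin of platelets, was lowest at 0.684 (0.491 to 0.942). The thrombin receptor F2r had 503 CPM in yap1 and 492 CPM in wild type, Mmrn2 a ratio of 1.04, and the clearance receptor Stab2 0.846 (0.774 to 0.925).

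Pathway genes beyond 1.5-fold were a minority in the following myeloid classes. Classical monocyte-like cells had 2 of 22 higher and 1 lower (all genes: 3.93% higher, 4.27% lower). The macrophage-like class derived from monocytes had 1 of 22 higher and 1 lower (all genes: 4.39% higher, 3.7% lower). Neutrophil-like cells had 3 of 12 higher and 1 lower (all genes: 14.7% higher, 3.89% lower). Nonclassical monocyte-like cells had 1 of 17 higher and 2 lower (all genes: 3.27% higher, 6.8% lower). Kupffer cell-like cells had 3 of 20 higher and 0 lower (all genes: 5.25% higher, 6.8% lower). Whether these shares differ from those of all genes was not tested. Serpinb2, an inhibitor of plasminogen activators, had 1.72 CPM (13 UMIs) in yap1 and 9.56 CPM (51 UMIs) in wild-type classical monocyte-like cells, a ratio of 0.18 (0.0899 to 0.336). Without the 5 leading cells of each library it was 2.47, and 23.4% of its 3′ words occur in another gene. Thbs1, which encodes thrombospondin, had ratios of 0.506 (0.446 to 0.572) in neutrophil-like, 0.740 (0.707 to 0.774) in classical monocyte-like and 0.667 (0.635 to 0.7) in monocyte-derived macrophage-like cells, the last 2 within 1.5-fold. Its ratio was the lowest pathway ratio of the neutrophil-like class. It was the highest pathway ratio in T cell-like cells at 2.35 (52 UMIs in yap1, 18 in wild type) and in Kupffer cell-like cells at 1.98 (35 UMIs in yap1, 30 in wild type). With clusters in place of gates these lay at 0.693 in T cell-like and 0.732 in Kupffer cell-like cells. Tgm2, a tissue transglutaminase related to factor XIII, had 358 CPM (625 UMIs) in yap1 and 139 CPM (226 UMIs) in wild-type neutrophil-like cells. Its ratio of 2.59 (2.22 to 3.02) was the highest pathway ratio of that class. In cDC2-like cells its ratio of 0.595 was the lowest pathway ratio. Anxa2, which binds plasminogen activators, had 1025 CPM in yap1 and 1098 CPM in wild-type neutrophil-like cells. Pf4, a chemokine of platelets and macrophages, had ratios of 1.79 (1.52 to 2.13) in classical and 0.273 (0.127 to 0.540) in nonclassical monocyte-like cells, but the classical one was 0.516 with clusters in place of gates. Kupffer markers in the nonclassical class summed to 116 CPM in yap1 and 329 CPM in wild type, with 2 of 7 at 0 in yap1 and 0 in wild type, and their part in the lower Pf4 was not tested. The lowest pathway ratios elsewhere were Furin at 0.614 in B cell-like, Itgb3 at 0.603 in T cell-like, Thbd at 0.669 in Kupffer cell-like (2.04 with cells weighted equally) and Vkorc1l1 at 0.635 in plasmacytoid dendritic-like cells.

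Across the 22 points of 11 classes in 2 libraries, each gene was compared with the genes of at least 100 UMIs by Pearson correlation of log2(CPM + 1). The points share their libraries and depths, and the values are descriptions. Hp and Clec1b are gate markers. F8 was most like Adgrf5 (0.98), Fbln2 (0.98) and Meis2 (0.98). F5 was most like Lcn2 (0.90), Wfdc21 (0.89) and Lrg1 (0.83), and F10 like Tmem38b (0.93), C3 (0.89) and Hp (0.89). F13a1 was most like Mmp19 (0.81), Ccr1 (0.79) and Thbs1 (0.77), and Procr like Kdelc2 (0.92), Clec1b (0.88) and Itsn1 (0.87). Vwf was most like Dennd2c (0.91), Adam23 (0.90) and Xiap (0.90), Plau like Slc45a4 (0.91), Glul (0.90) and Plxna1 (0.89), and Plaur like Gpcpd1 (0.92), Arhgap24 (0.91) and D1Ertd622e (0.90). F3, with fewer UMIs than needed in the compared classes, was not compared.

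In the mm10 build the genes lie at chr3:121723537-121735048 (F3), chr1:164151838-164220277 (F5), chrX:75172715-75382615 (F8), chr8:13037308-13056676 (F10), chr13:36867178-37050244 (F13a1), chr6:125546774-125686679 (Vwf), chr14:20836660-20843385 (Plau), chr7:24462484-24475968 (Plaur) and chr2:155751117-155755471 (Procr). Other annotated genes overlap F5 (2), F8 (3) and F13a1 (2), and since no source at hand says whether the counting used strand, reads of these cannot be told apart from those of the overlapped genes.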

How the data were processed

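The deposited files hold raw UMI counts per gene and cell barcode, per the file headers, without normalization. Per the submitters' processing notes the build was mm10 and the tools were Bowtie 0.12.2 and Seurat; the counting program, chemistry and strand setting are not given in the sources used here. Barcodes with at least 500 UMIs, 200 genes and at most 20% mitochondrial UMIs were kept. A cell passed a gate with at least 3 markers of a list and 10 marker UMIs per 10000; the marker lists were fixed first, and the gate rule after marker counts were seen. Cells passing gates of several lineages (176 yap1, 208 wild type) or none (179, 243) were left out of classes, which also served against doublets, since the automatic threshold of Scrublet marked 0.0964% of yap1 and 0.0619% of wild-type barcodes and so had not worked.

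UMIs were summed per class and library as CPM with exact Poisson intervals, ratios carry exact conditional binomial intervals and shares exact Clopper-Pearson intervals. A ratio needed 50 UMIs over both libraries, and a 0 allows 3 counts. UMIs of a cell are not independent of its others, and intervals cover counting error only. Thinned shares are exact expectations over all draws, chosen after single random draws were seen to differ. Libraries are not replicated, and cells are not replicates. The ratio calculation was tested on simulated counts.

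The genes and lists were chosen with earlier results of these data known. Named by rule are all 9 genes, per class the pathway genes with the highest and lowest ratio, per role the gene with the highest CPM, and the 3 genes most like each member; F7, Gas6, Fgg, Pros1, Tfpi, Tfpi2, Anxa5, Thbd in endothelium, F12, Plg, Hrg, Thbs1 in monocytes and macrophages and the cell subsets were chosen after their values were seen. A result that the rule names in the wider list is not reported here. Words of 50 bases from the last 500 bases of GENCODE M21 transcripts were compared between genes. Alternatives changed doublets, cell filter, gate, Leiden clusters for gates, scaling, cell weights and depth. The work was done in Python 3.11.15 with scanpy 1.11.5 (leidenalg 0.10.2, igraph 0.11.9), scipy 1.17.1, scikit-learn 1.9.0, matplotlib 3.10.9, pandas 2.3.3 and numpy 2.4.6.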

Additional observations from a re-analysis of the deposited data

Results flagged for a closer look

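For F13a1 the ratio of yap1 over wild type was 2.95 in B cell-like cells and 0.564 in neutrophil-like cells, on opposite sides of 1. For Plaur it was 1.55 in Kupffer cell-like cells and 0.445 in cDC2-like cells. With 1 library per genotype neither difference between classes was tested. The values in B cell-like and Kupffer cell-like cells rest on a few barcodes, as given with the results. So does the neutrophil-like F13a1 value, with 64 of 67 UMIs in 17 yap1 cells and 110 of 111 in 23 wild-type cells; it was 2.74 without these cells and 1.84 with clusters in place of gates.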

How the results depend on the processing

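No paired analysis was possible because each genotype has 1 library. The 26 ratios were recomputed under 272 combinations of ratio and alternative; 240 stayed within the main interval, 21 left it, and 11 of ratios beyond 1.5-fold turned to the other side of 1. In all, 17 ratios kept their side of 1 under every alternative run. Vwf in endothelial cells (1.961) became 0.947 with Leiden clusters, 0.451 without the 5 leading cells, 0.968 with joined gates, 1.18 with cells weighted equally and 1.32 thinned to 1000 UMIs. F13a1 in B cell-like cells became 0.232 without the top Scrublet scores, 0.492 with Leiden clusters and 0.390 without the 5 leading cells; in neutrophil-like cells 1.84 with Leiden clusters and 2.74 without cells with monocyte genes (3 UMIs in yap1, 1 in wild type); Plaur in Kupffer cell-like cells 0.821 with Leiden clusters, 0.894 thinned and 0.752 without the 5 leading cells. F13a1 in classical monocyte-like cells stayed lower at 0.715 (Leiden), 0.681 (equal weights), 0.683 (thinned) and 0.718 (without progenitor-gene cells). Ratios of shares of cells moved to 0.729 at 1000 and 0.706 at 500 UMIs for F13a1 (main 0.920), 0.908 and 0.868 for Plaur in plasmacytoid dendritic-like cells (main 1.01), and 0.861 at 500 UMIs for Procr in Kupffer cell-like cells (main 1.30). Among 36 named pathway ratios 7 of 372 values turned: Serpinb2 in classical monocyte-like cells (2.47) and Thbs1 in Kupffer cell-like cells (0.988) without the 5 leading cells, Thbs1 in T cell-like cells without the top Scrublet scores (0.968), and with Leiden clusters Pf4 in classical monocyte-like cells (0.516) and Thbs1 in T cell-like (0.693), nonclassical (1.05) and Kupffer cell-like cells (0.732). The share of all pairs beyond 1.5-fold was 15.9% with at least 20 UMIs and 38.2% with at least 1. The causes were not tested. The doublet, gate and depth limits apply to all values; F3, Plau and Procr are limited by their few UMIs. Alternatives with the 5 leading cells, monocyte genes, progenitor genes and joined gates were added after seeing the data.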

Other observations

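F7, which encodes the factor VII that tissue factor binds, lies 1499 bases before F10 on chromosome 8 and is known as a hepatocyte gene. In hepatocyte-like cells, a small class by UMIs, F7 had too few UMIs over both libraries for a ratio. Its level there is not given, so whether F7 was higher in macrophage-like than in hepatocyte-like cells was not tested. In monocyte-derived macrophage-like cells F7 was at 71.9 CPM (525 UMIs) in yap1 and 55.2 CPM (218 UMIs) in wild type. There F7 had a ratio of 1.30 (1.11 to 1.53). Its neighbour F10 had a ratio of 1.06 (0.892 to 1.25) in the same class. In classical monocyte-like cells, the main source of F10 UMIs, F7 had 9.67 CPM (73 UMIs) in yap1 and 10.1 CPM (54 UMIs) in wild type, a ratio of 0.956 (0.663 to 1.38). Gas6, a vitamin K-dependent protein related to protein S, had 41.7 CPM (304 UMIs) in yap1 and 30.4 CPM (120 UMIs) in wild-type macrophage-like cells, a ratio of 1.37 (1.11 to 1.71). These genes were chosen after their values were seen.

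Small classes held Vwf as well. Among cDC1-like cells 4 of 13 yap1 cells and 2 of 26 wild-type cells had Vwf, with 5 UMIs in yap1 and 4 in wild type. The cells that passed gates of several lineages held 4 Vwf UMIs in yap1 and 72 in wild type.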
